A study of Mus musculus with 2 samples.

Results

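Egr1, Egr2, Egr3, Egr4, Arc, Npas4, Nr4a1, Nr4a3, Ier2 and Dusp1 are immediate early genes, which neurons transcribe within minutes of synaptic activity. They were taken by name, and their windows were the gene bodies plus 50 kb on each side in GENCODE M21. They make up 10 of 21851 protein-coding genes. Their windows held 215 of the 144270 DNase-seq peaks of replicate 1, 178 of the 124426 peaks of replicate 2 and 149 of the 101938 sites shared by both. The single group was hippocampus of male B6CASTF1/J mice, a cross of C57BL/6J and CAST/EiJ, aged 8 to 10 months, and the labels name no treatment. The tissue was labelled as a layer of hippocampus with no layer given. Each of the 2 biological replicates was a pool of 2 biosamples, both carried 1 donor label, and the sources used here do not say whether the pools shared animals. No stimulus was compared, so the data describe accessibility at these genes and give no response to activity.

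DNase I cuts DNA that nucleosomes and bound proteins leave exposed, so a cluster of cuts, called as a peak, marks an accessible promoter or a distal element, and a short protected stretch inside it, a footprint, marks a candidate binding site. Calcium entry at active synapses engages kinase pathways that act on factors already present in the nucleus. CREB binds the cAMP response element (CRE), SRF binds the CArG box with partners such as ELK1, and MEF2 proteins bind an A/T-rich element. The genes they switch on encode zinc-finger factors (Egr1 to Egr4), orphan nuclear receptors (Nr4a1, Nr4a3), a neuron-specific basic helix-loop-helix PAS factor (Npas4), a synaptic protein that acts in AMPA receptor endocytosis (Arc), a phosphatase that inactivates MAP kinases (Dusp1) and a nuclear protein of the early response (Ier2).

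The promoter windows are shown first, for the CRE cores that each of them holds. The RefSeq promoter table (GRCm38.p6, 250 bases before to 50 after the start) matched 6 of the 10 genes, and Egr1, Egr3, Arc and Ier2 were not matched. In the lines below, given 5′ to 3′ along the gene, capitals mark the CRE TGACGTCA, its core TGACG, the CArG box (CC, 6 bases of A or T, GG), the EGR element GCGGGGGCG and the SP/KLF element GGGGCGGGG on either strand. The core lies within the CRE on both strands, and EGR and SP/KLF matches can overlap. The windows are chr10:67537619-67537918 (plus strand) for Egr2, chr6:85513540-85513839 (minus) for Egr4, chr19:4989922-4990221 (minus) for Npas4, chr15:101266596-101266895 (plus) for Nr4a1, chr4:48045055-48045354 (plus) for Nr4a3 and chr17:26508423-26508722 (minus) for Dusp1.
Egr2 promoter: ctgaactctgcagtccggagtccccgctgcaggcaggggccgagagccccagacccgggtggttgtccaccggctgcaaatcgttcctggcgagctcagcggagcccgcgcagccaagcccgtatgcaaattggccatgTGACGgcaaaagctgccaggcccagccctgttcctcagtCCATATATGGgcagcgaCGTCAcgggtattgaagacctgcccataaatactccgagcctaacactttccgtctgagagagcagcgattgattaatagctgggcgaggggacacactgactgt
Egr4 promoter: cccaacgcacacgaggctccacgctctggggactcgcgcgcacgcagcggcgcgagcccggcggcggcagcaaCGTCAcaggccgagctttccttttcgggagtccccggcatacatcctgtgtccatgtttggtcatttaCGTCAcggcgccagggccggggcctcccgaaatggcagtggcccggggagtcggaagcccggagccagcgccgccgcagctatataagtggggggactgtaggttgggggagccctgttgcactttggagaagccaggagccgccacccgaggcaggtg
Npas4 promoter: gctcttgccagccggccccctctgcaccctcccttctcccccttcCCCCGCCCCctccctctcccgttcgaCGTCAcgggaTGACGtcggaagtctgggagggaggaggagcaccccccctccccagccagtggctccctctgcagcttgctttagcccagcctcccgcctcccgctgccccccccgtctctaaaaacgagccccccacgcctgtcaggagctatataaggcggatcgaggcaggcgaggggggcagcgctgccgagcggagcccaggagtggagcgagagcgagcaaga
Nr4a1 promoter: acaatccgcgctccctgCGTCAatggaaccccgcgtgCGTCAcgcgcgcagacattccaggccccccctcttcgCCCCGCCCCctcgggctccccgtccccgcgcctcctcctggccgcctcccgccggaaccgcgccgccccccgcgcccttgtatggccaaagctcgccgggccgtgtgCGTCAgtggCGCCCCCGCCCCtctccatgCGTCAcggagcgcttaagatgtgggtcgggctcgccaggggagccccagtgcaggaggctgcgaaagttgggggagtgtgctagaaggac
Nr4a3 promoter: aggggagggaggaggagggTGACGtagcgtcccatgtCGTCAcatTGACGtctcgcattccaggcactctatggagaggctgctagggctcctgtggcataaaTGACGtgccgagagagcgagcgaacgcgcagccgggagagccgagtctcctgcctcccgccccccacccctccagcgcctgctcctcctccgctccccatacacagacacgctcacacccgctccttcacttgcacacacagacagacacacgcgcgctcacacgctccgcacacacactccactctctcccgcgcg
Dusp1 promoter: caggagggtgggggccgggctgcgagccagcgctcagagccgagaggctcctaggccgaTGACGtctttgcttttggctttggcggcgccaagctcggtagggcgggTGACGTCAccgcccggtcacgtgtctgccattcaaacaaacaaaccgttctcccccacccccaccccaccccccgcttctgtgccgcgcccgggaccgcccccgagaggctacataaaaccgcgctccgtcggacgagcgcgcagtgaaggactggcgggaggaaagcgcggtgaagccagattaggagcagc
All 6 windows held at least 1 CRE core, against 20.8% of the 32851 windows in the table. Nr4a1 and Nr4a3 had 4 cores each, and Egr2, Egr4 and Npas4 had 2 each. The Dusp1 window held 1 separate core and a full CRE at -143 to -136 from the RefSeq start, and 1.79% of all windows held one. A full CArG box was found in the Egr2 window alone (1.63% of all windows), at -72 to -63 from the start. Shared peaks covered between 166 and 300 bases of each window.

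Matches of the CArG box in the shared sites of the other genes were spread wider, and the lines below show each with 10 bases on both sides, the match in capitals, and its distance from the nearest GENCODE start site. They are shown because this motif separated the promoter sites of the set from promoter sites in general by ratio more than the other 12 did.
Egr2 -371 bp (chr10:67537484-67537513): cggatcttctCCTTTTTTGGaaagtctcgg
Egr2 -68 bp (chr10:67537787-67537816): gttcctcagtCCATATATGGgcagcgacgt
Egr3 -11086 bp (chr14:70066103-70066132): aaaggagaagCCAAAATTGGccagactgag
Egr3 -356 bp (chr14:70076833-70076862): ctttgtctgtCCATATATGGgcagctacgt
Arc -928 bp (chr15:74673484-74673513): gagccccattCCTTATATGGcatcttgctt
Arc -6720 bp (chr15:74679276-74679305): cagcctctctCCTTTTATGGtgccggaagc
Npas4 -610 bp (chr19:4990912-4990941): ggattcctgtCCTAATATGGagctgggatt
Npas4 -11541 bp (chr19:5001843-5001872): ccagttcttgCCTATTTTGGaagagagccg
Dusp1 +723 bp (chr17:26561391-26561420): ttccgccgccCCATTAAAGGggcccgaggg
The Egr2 box at -68 and the Egr3 box at -356 were the same 10 bases, and the 30-base stretches shared 25 bases, while every other pair of the 9 shared at most 17. The Egr1 promoter held a further 2 boxes, at -101 and -79 bp.

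Every promoter of the set was accessible. A peak of the longer, less strict list lay within 1000 bp of a protein-coding start site in both replicates for 10 of 10 genes, beside 62.6% of all protein-coding genes. Peak height is the authors' deposited value on an unstated scale, and its values run in whole steps of 0.00656 in replicate 1 and 0.00646 in replicate 2. The median height of the strongest promoter peak was 4.17 in the set and 3.26 over all genes open in both replicates (mean of the 2 replicates). It passed that median in 9 of 10 genes, and 3 of 10 (Egr1, Arc and Dusp1) were in the top 25%, whose limit was 5.62.

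Among the zinc-finger genes, Egr1 had the tallest promoter, with a peak at -76 bp (chr18:34861021-34861240) of height 8.12 in replicate 1 and 7.03 in replicate 2 (7.58 ± 0.768, SD, n = 2), at percentile 87.8 of open genes. A second tall peak stood 138 bp past the upstream start site of Egr1, at 7.79 and 5.91 in replicates 1 and 2. Egr3, which acts in muscle spindle formation and in memory, had 4.57 and 4.01 (4.29 ± 0.399). Egr4 had 4.88 and 3.38 (4.13 ± 1.06), the widest gap between replicates among the 10 genes. Egr2, known for its role in hindbrain segments and myelinating Schwann cells, had 3.61 and 2.94 (3.27 ± 0.475), next to the median of open genes. The Egr promoters thus ran from mid-range to high. The replicate values of Egr4 overlapped those of Egr2 and Egr3, while those of Egr2 and Egr3 did not overlap each other. Within each replicate Egr4 stood above Egr2, but the order of Egr4 and Egr3 changed.

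Arc had the second tallest promoter of the set (chr15:74672501-74672800), 6.81 in replicate 1 and 5.48 in replicate 2 (6.15 ± 0.941, percentile 79.3). Dusp1 followed with 6.20 and 5.20 (5.70 ± 0.705), and Ier2 had 4.46 and 3.95 (4.21 ± 0.361). For the nuclear receptors the heights were 4.26 and 3.2 at the downstream promoter of Nr4a1 (3.73 ± 0.752) and 3.33 and 3.47 at Nr4a3 (3.40 ± 0.0944). Npas4 was lowest, with 2.18 and 1.56 (1.87 ± 0.440, percentile 30.4), and neither replicate reached the lower value of any other gene. Replicate 1 ran higher in general (median log2 ratio 0.19 over all shared sites), so overlap of replicate ranges is a weak guide to order. The ranges of Arc and Dusp1 overlapped, as did those of neighbours in this order from Egr3 to Egr2. Within each replicate, Arc stood above Dusp1, Egr3 above Ier2 and Egr4 above Nr4a1. Ier2 and Egr4, Nr4a1 and Nr4a3, and Nr4a3 and Egr2 changed order between replicates. Egr1 in both replicates stood above every value of the other 9 genes.

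**Figure D1:**
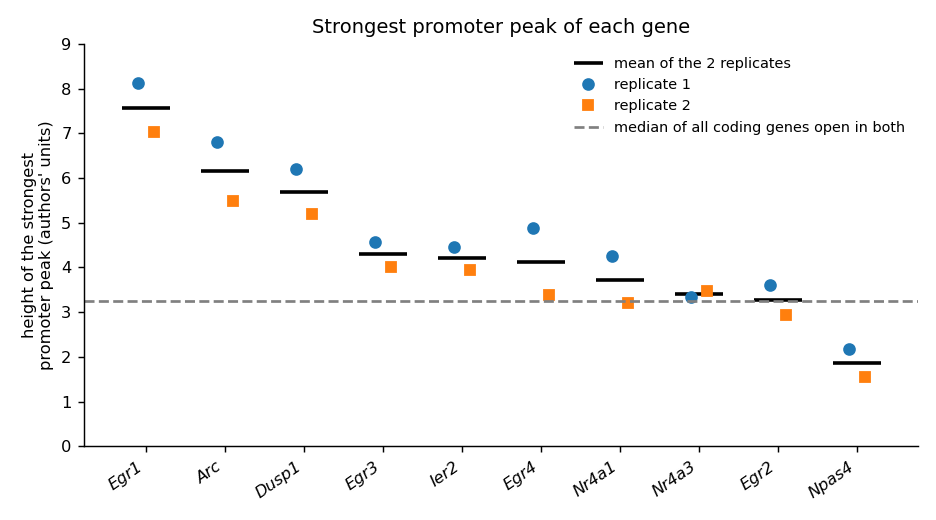
Height of the strongest promoter peak (y axis, authors' units) of each gene (x axis) in replicate 1 (circles) and replicate 2 (squares), with the mean as a bar and the median of all coding genes open in both replicates (3.26) as a dashed line. Egr1 is highest at 7.58 on average, and Npas4 at 1.87 is the one gene whose mean is below the dashed line.

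The promoters were split into several peaks more often than those of other genes. A median of 3 shared sites lay in the promoter windows of each gene, against 1 over all genes open in both replicates. At least 3 were present in 8 of 10 genes, beside 15.7% of open genes. Egr1 and Egr2 had 4 each, Dusp1 had 5, and Egr4 and Arc had 2. One of the Dusp1 sites belonged to the start of a long transcript whose promoter lies 639 bp from that of Ergic1, a gene of the endoplasmic reticulum to Golgi traffic, and the site can be counted for either. Genes with several start sites have wider promoter windows, and the part of this in the count was not tested.

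Peaks covered more of the short genes than usual, counted with any promoter peaks that lie inside the gene. In the 7 genes of 10 kb or less, peaks covered a median of 28.6% of the gene, and over all 3266 open genes of that size 5.44%. The covered share was 43.7% in Egr4, 39.4% in Egr3, 36.4% in Egr1, 28.6% in Ier2, 17.9% in Egr2 and 12.7% in Npas4. Arc was the exception at 4.44%, with 8.89% in replicate 1 and 0 in replicate 2, where its main promoter peak was only 60 bp long. In Egr1 the share also differed between replicates, at 51.7% in replicate 1 and 21.1% in replicate 2. A gene of 1.52 kb such as Ier2 is partly promoter by size, and the promoter sites of Egr1 and Egr2 lie within those genes. Gene length moves with this share (median 5687 bp in the set, 17380 bp over all genes, both without the 10 kb limit). The parts of gene length and of promoter peaks were not tested.

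Outside promoters, the windows were dense in shared sites. The set had a median of 8.15 shared sites per 100 kb that touched no protein-coding promoter, against 3.54 over all genes and 4.06 over genes open in both replicates, and 10 of 10 genes were above the all-gene median. Egr1 had 12.4 and Egr3 12.3 sites per 100 kb, and Nr4a1 had 10.8. Egr2 was lowest at 3.75, the one gene under the 4.06 of genes open in both replicates. The median number of other coding genes starting in the window was 1, against 2 over all genes. In all, the 149 shared sites, among them 2 of Egr4 and 2 of Egr3 that overlapped each other, comprised 32 at promoters of the set, 14 inside the genes but outside promoters, 80 distal and 23 at promoters of neighbouring genes. The 94 sites of the set outside promoters were also taller than usual, with a median height of 1.16, and all shared sites outside promoters had 0.717. Among the 94, the 80 distal sites had a median of 1.32. The 14 sites inside the genes had 0.789, and the 32 promoter sites had 1.78, beside 1.62 for all shared promoter sites. Distal and gene-internal sites of the set together had a median GC content of 55.4%, against 50% for all shared sites outside promoters. Their median length was 248 bp, against 220 bp.

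**Figure D2:**
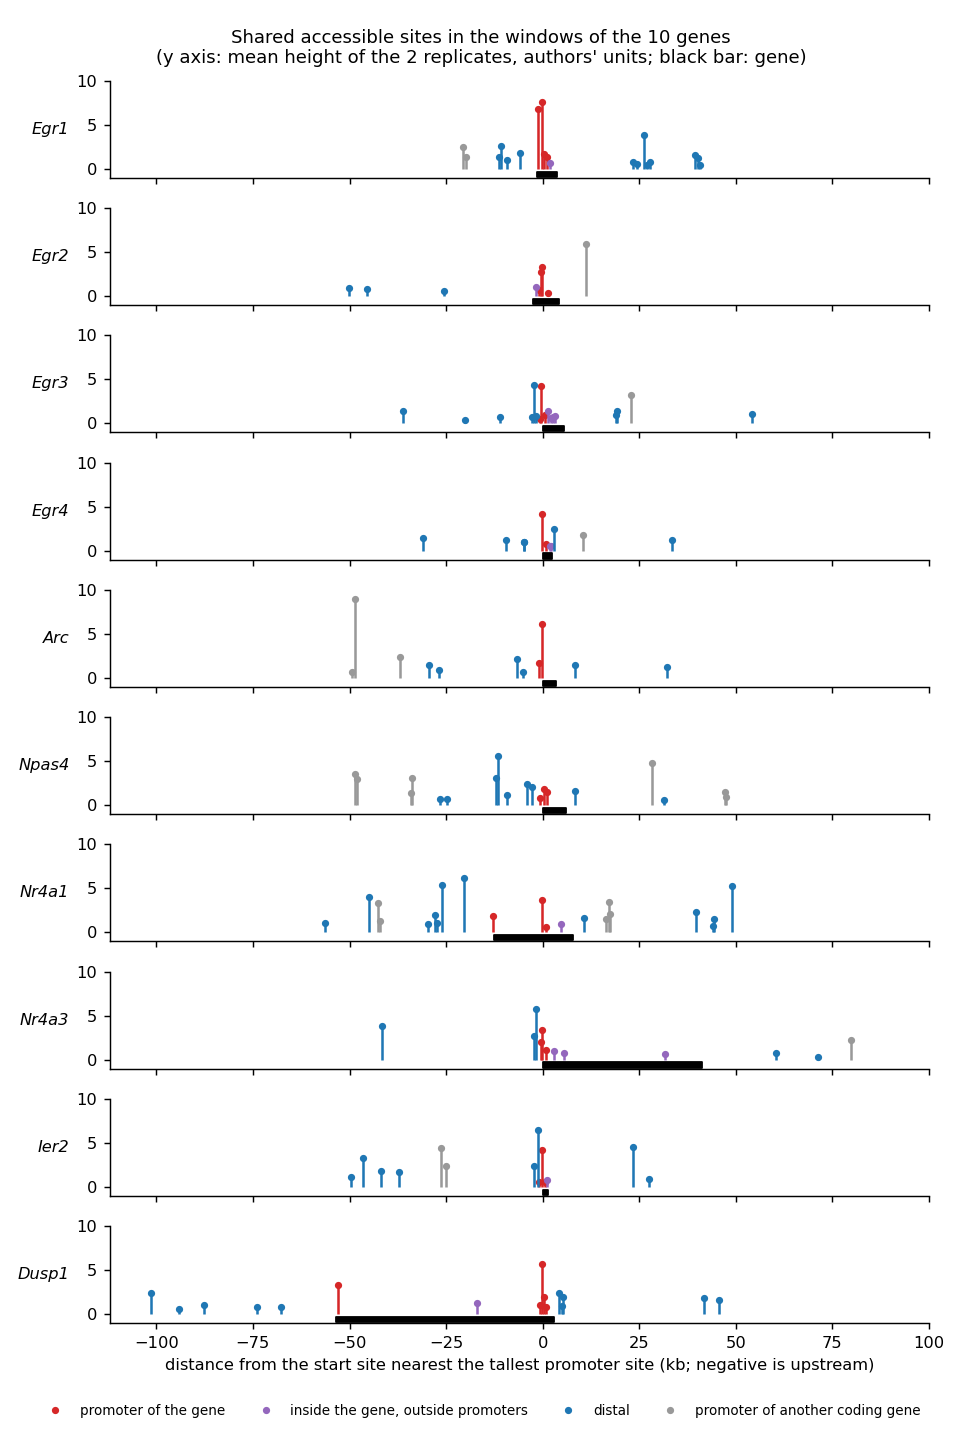
Mean height of the 2 replicates (y axis, authors' units) of each of the 149 shared sites by distance in kb from the start site nearest the gene's tallest promoter site (x axis, negative upstream), with 1 panel per gene, colours for the class of site and a black bar for the gene. Egr1, Egr3 and Nr4a1 have many sites outside promoters, whereas Egr2 has 4, and in the Egr3, Npas4, Nr4a1, Nr4a3 and Ier2 panels a distal site stands above the gene's own promoter.

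At several genes a distal site was taller than the promoter. Distances are from the centre of a site to the nearest start site of the gene. Upstream of Ier2 a site at -1229 bp reached 6.68 in replicate 1 and 6.34 in replicate 2 (6.51 ± 0.241), above the promoter peak in both. Nr4a1 had a site at -7828 bp from its upstream start, with 7.61 and 4.86 (6.23 ± 1.95), and others at -13378 bp (5.13 and 5.58) and +49145 bp (5.41 and 5.07). The promoter of Nr4a1 was lower than all of these in both replicates. Nr4a3 had a site at -1682 bp with 6.99 and 4.44 (5.71 ± 1.81), and another at -41462 bp with 4.52 and 3.06. The first of these was above the Nr4a3 promoter in both replicates, and the second only in replicate 1.

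Npas4 showed the widest gap between a distal site and the promoter. Its site at -11625 bp (chr19:5001801-5002080) had 6.75 in replicate 1 and 4.40 in replicate 2 (5.58 ± 1.66), against 2.18 and 1.56 at the promoter, and a companion at -11945 bp had 3.37 and 2.83. The strongest Egr3 distal site, at -2222 bp, had 4.84 and 3.85, close to the promoter's 4.57 and 4.01. Egr1 had its strongest at +26344 bp (4.10 and 3.58), where an EGR element overlapped an SP/KLF element and footprints lay on both matches in both replicates. Egr4 had 2.42 and 2.54 at +2918 bp, and Egr2 only 1.02 and 0.95 at -50158 bp. Dusp1 had 2.47 and 2.38 at -47873 bp, counted from the start of its long transcript and not from that of its tallest promoter. A second Dusp1 site, at +4281 bp, had 2.67 and 2.07. Sites such as those of Ier2 and Nr4a3 lie just beyond the 1000 bp promoter limit, and with 2000 bp the median strongest promoter peak of the set was 4.99.

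Arc is known to carry a synaptic activity-responsive element several kilobases upstream, where CREB, MEF2 and SRF act together. The strongest distal site of Arc, at -6701 bp (chr15:74679161-74679380), had heights of 2.34 in replicate 1 and 2.00 in replicate 2 (2.17 ± 0.246), near the 2.48 and 2.42 of the strongest distal sites of Egr4 and Dusp1. It held a CArG box at -6720 bp with a footprint over it in both replicates, and a CRE core at -6753 bp with a footprint in neither. No MEF2 match by the letters searched lay in any shared distal site of the set, a search that accepts exact consensus only. The Arc and Npas4 distal sites are printed here along the gene's strand (minus for both) because each is the tallest distal site of its gene and pairs a CArG box with a CRE core, both in capitals.
Arc distal site: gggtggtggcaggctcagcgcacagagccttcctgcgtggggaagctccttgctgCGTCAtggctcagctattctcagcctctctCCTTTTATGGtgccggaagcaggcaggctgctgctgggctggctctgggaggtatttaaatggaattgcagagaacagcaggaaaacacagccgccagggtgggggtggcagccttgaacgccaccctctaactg
Npas4 distal site: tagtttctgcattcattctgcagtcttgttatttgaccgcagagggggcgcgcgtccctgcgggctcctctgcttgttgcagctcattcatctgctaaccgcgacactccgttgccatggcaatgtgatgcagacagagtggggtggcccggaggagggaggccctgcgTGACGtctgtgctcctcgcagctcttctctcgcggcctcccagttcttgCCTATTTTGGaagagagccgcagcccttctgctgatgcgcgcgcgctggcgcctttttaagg
The Npas4 box at -11541 bp had no footprint in either replicate, nor had the box at -11086 bp in the Egr3 site.

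The CArG box set the promoter sites of these genes apart from promoter sites in general by share. It matched in 7 of their 32 shared promoter sites (21.9%), in 6 genes (Egr1, Egr2, Egr3, Arc, Npas4 and Dusp1), while 1.17% of all 21376 shared promoter sites held one. Without the long Dusp1 transcript, whose site holds the box at +723 bp, 6 of 31 promoter sites had a match (19.4%). Outside promoters it matched in 3 of 94 sites (3.19%), and 1.17% of the 80562 shared sites outside promoters held one. A footprint overlapped the box in both replicates at 1 of 8 promoter matches, that of Egr2 at -68 bp, and this share of 12.5% compares with 16.9% of promoter matches in the whole data. The Egr1 box at -79 bp had a footprint in replicate 2 only, and the Dusp1 box in replicate 1 only.

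A full CRE matched in 2 of 32 promoter sites (6.25%), beside 2.67% of all. These were Ier2 at -41 bp and Dusp1 at -92 bp, both with a footprint in both replicates. In the whole data 84.2% of promoter CRE matches had one. These distances are from the nearest GENCODE start. The Dusp1 match is the CRE printed above at -143 to -136 from the RefSeq start. The only full CRE outside promoters lay in the Egr1 site at -9962 bp (1.61 and 1.19 in replicates 1 and 2), 1.06% of sites against 0.468% of all. It too had footprints in both, as did 54.1% of CRE matches outside promoters in the whole data. The CRE core was wider spread. It matched in 14 of 32 promoter sites (43.8%), against 30.2%, and in 25 of 94 sites outside promoters (26.6%), against 11.8%. Promoter matches lay in every gene of the set except Arc, and all 10 genes had at least 1 outside promoters. The share of all genes with a core was not computed. Counts by gene rise with sites per gene, and the set had a median of 3 promoter sites against 1. Footprints in both replicates lay over 12 of its 29 promoter matches (41.4%), and over 31.8% of those in all promoter sites. Outside promoters they lay over 5 of its 31 matches (16.1%), against 15.3%.

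The products of the set have elements of their own. The EGR element, bound by Egr1 to Egr4 (GCGTGGGCG or GCGGGGGCG), matched in 4 of 32 promoter sites (12.5%), against 6.79%, in Egr1, Npas4, Nr4a1 and Dusp1. Outside promoters it matched in 2 of 94 sites (2.13%), against 0.526%, one each in the windows of Egr1 and Egr3. Promoter matches in Npas4, Nr4a1 and Dusp1 had footprints in both replicates (3 of 4), and 57.3% of promoter matches in the whole data did. Each of these 3 overlapped an SP/KLF match, so the factor behind a footprint cannot be told apart. The NBRE element of the Nr4a receptors, AAAGGTCA, matched in 0 of 32 promoter sites, against 0.65%. Outside promoters it matched in 1 of 94 sites (1.06%), against 0.659%, so both counts were near the overall shares. That match lay in a distal site (Npas4 at -26713 bp, with no footprint). The NPAS4 core TCGTG matched in 9 of 32 promoter sites (28.1%), against 23.9%.

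The remaining motifs went in both directions. The AP-1 element TGANTCA, bound by FOS and JUN, matched in 1 of 32 promoter sites (3.12%), against 4.87%, and in 9 of 94 other sites (9.57%), against 12.6%. The E-box CANNTG, recognised by NEUROD and other basic helix-loop-helix factors, matched in 50% of promoter sites, against 65.0%, and in 70.2% of other sites, against 82.5%. MEF2 matches occurred in 2 promoter sites, both of Nr4a1 (6.25% against 1.12%), one with 2 matches, and no match had a footprint in both replicates. SP/KLF matched in 7 of 32 promoter sites (21.9%), against 17.3%, and in 6 of 94 other sites (6.38%), against 1.45%. That last difference, and those of the CRE core and the EGR element outside promoters, stand beside the higher GC content and length given above. The part of either was not tested. Neither ETS (CCGGAAGT, 5.22% of all promoter sites) nor the NRF1 consensus (1.53%) matched in a promoter site of the set. TATAAA matched in 2 of 32 (6.25%), against 4.34%. At such shares few matches would fall in 32 sites.

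**Figure D3:**
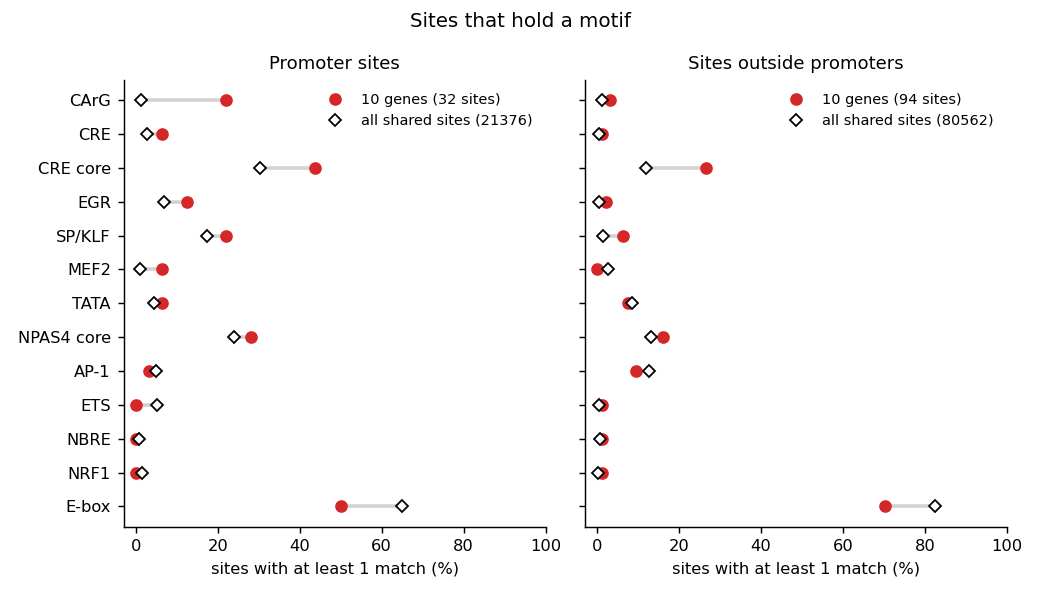
Share of sites with at least 1 match (x axis, %) for 13 motifs (y axis), in sites of the 10 genes (filled circles) and in all shared sites (open diamonds), for promoter sites on the left and sites outside promoters on the right. CArG has the widest relative gap among promoters (21.9% against 1.17%), while the E-box is rarer in the set in both panels.

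Averaged over the replicates, footprints were about as frequent in the promoter sites of the set as elsewhere. The median was 3.25 per site against 3.5 and 1.48 per 100 bp against 1.41. The replicates went opposite ways, with 1.11 per 100 bp against 1.36 in replicate 1 and 1.62 against 1.39 in replicate 2. Of the 32 promoter sites, 0 lacked a footprint in both replicates, against 7.19% of all shared promoter sites. Outside promoters the median was 3 per site, against 2, and 1.25 per 100 bp against 1.07. For the 9 longer motifs pooled over all 149 sites, 27 of 64 matches (42.2%) had a footprint in both replicates, and 28.2% of 28039 matches in the whole data did. Motifs differ in this share and the mix of motifs was not held fixed. Nor was the mix of sites, with 55 promoter sites among the 149 and 21376 among all 101938. The main Arc peak and the Egr1 peak at +138 bp had 6 footprints each in replicate 1 and 0 in replicate 2, where both peaks were cut to 60 bp.

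The replicates gave the same picture at most sites. Of the 215 window peaks of replicate 1, 153 (71.2%) were overlapped in replicate 2, against 72.3% of all its peaks, and of the 178 of replicate 2, 157 (88.2%) were overlapped in replicate 1, against 84.1%. Peaks in 1 replicate only were low, with a median of 0.604 for the 62 of replicate 1 and 0.517 for the 21 of replicate 2, while overlapped peaks had 1.45 and 1.23. The tallest of them was in the Egr1 promoter, at 2.96 in replicate 1, over 360 bp that the authors' file lists in full at a false discovery rate of at most 0.05 in replicate 2. Ier2 had 28 and 15 window peaks in replicates 1 and 2, and Arc had 20 and 11, while Npas4 had 19 and 25, so the surplus of replicate 1 was not general.

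After scaling to the median of all shared sites, the height ratio of replicate 1 over replicate 2 had a median of 0.03 (log2) over the 149 sites, and 84 of them were higher in replicate 1 (56.4%, against 50%). Differences past 1.5-fold were few. In replicate 1, 3 sites were higher (3.45% of all shared sites were). These were Nr4a1 at -15243 bp (2.56 in replicate 1 and 1.31 in replicate 2), Egr3 at +18917 bp (1.3 and 0.70) and Egr2 at -1748 bp (1.35 and 0.76). In replicate 2, 3 were higher, beside 5.53% of all. These were a promoter site of Npas4 at +1115 bp (1.17 in replicate 1 and 1.74 in replicate 2), Egr2 at -25458 bp (0.45 and 0.63) and Dusp1 at -702 bp (0.90 and 1.22). With 1 sample on each side these differences have no replicate check. No strongest promoter peak was among them. The largest ratio was 0.78 ± 0.12 at the Nr4a1 site, where the error covers counting only and takes 1 step of the height as 1 cut.

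**Figure D4:**
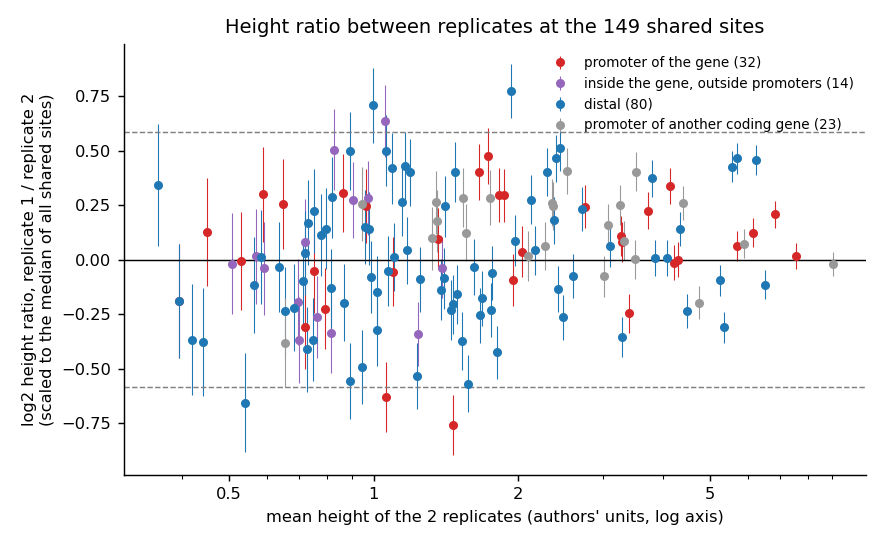
Scaled log2 height ratio of replicate 1 over replicate 2 (y axis) against the mean height (x axis, authors' units, log axis) of the 149 shared sites, coloured by class, with counting error as bars and dashed lines at 1.5-fold. Of the points, 3 lie above the upper line and 3 below the lower one, none with a mean height over 2.

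Neighbouring genes shared the windows. Promoters of 16 other coding genes with a shared site lay in them, the nearest being Ergic1 for Dusp1, Ado (a thiol dioxygenase) 10.3 kb from Egr2 and Fbxo41 (a neuronal F-box protein) 10.6 kb from Egr4. The tallest was Them6, 48.6 kb from Arc, with 9.55 in replicate 1 and 8.48 in replicate 2 (9.01 ± 0.757), above the Arc promoter in both. Bin3 lay 22.8 kb from Egr3 (3.26 ± 0.70), Reep2 19.2 kb from Egr1 (2.52 ± 0.729) and Atg101, of the autophagy kinase complex, 17.4 kb from Nr4a1 (3.49 ± 0.326). Which of the genes a distal site acts on was not measured.

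The factors that act on these genes also had accessible promoters. Of 24 upstream regulators and partners, 23 had a promoter peak in both replicates (62.6% of all genes), with a median height of 3.53, against 3.26 for all open genes. The tallest were Mrtfa, an SRF coactivator (11.8 ± 2.63), Rps6ka5, a kinase that acts on CREB and histone H3 (11.1 ± 3.10), and Creb1 itself (8.35 ± 2.42). Elk3, an SRF partner, had a peak of 0.249 in replicate 1 and none in replicate 2. Of 20 other activity-induced genes, 20 were open in both, with a median of 5.26, led by Gadd45b (8.54 ± 2.63), which acts in DNA demethylation, the synaptic scaffold gene Homer1 (7.45 ± 1.54) and the kinase gene Sik1 (7.44 ± 1.28).

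The tissue label was set beside the promoters of cell type markers. Those of excitatory neuron markers were open in both replicates for 7 of 7 genes, oligodendrocyte markers for 5 of 6, astrocyte markers for 5 of 6 and inhibitory neuron markers for 3 of 7. Over all protein-coding genes the share was 62.6%. Median heights of the open ones were 3.16, 1.77, 1.09 and 0.791 in that order, against 3.26 for all open genes. For microglia and for endothelial cells 1 of 5 was open, for liver 1 of 4 (Ttr, which the choroid plexus also expresses) and for skeletal muscle 0 of 4. Immediate early genes can be induced in other cells than neurons, and the cells behind each site cannot be told apart in bulk tissue.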

How the data were processed

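DNase-seq of 2 biological replicates of mouse hippocampus was analysed. Coordinates are mm10, per the labels. Neither the aligner nor the callers are named in the sources used here, and their settings are not given there. The authors deposited, per sample, 2 peak lists with a height per peak (a signal on an unstated scale), false discovery rates of the cut rate (q-values, only intervals at 0.05 or less listed) and footprints with the constant 0.01 in each row (read as a p-value threshold), so footprints have no rank. Heights below 200 steps were all multiples of a step, with a tolerance of 0.1 step. Median height was 0.643 and 0.639, or 98 and 99 steps, in replicates 1 and 2. The last column of the peak lists holds the constant 75, so site centres are midpoints. The longer lists were used (144270 and 124426 peaks), the shorter ones (87039 and 74088) as an alternative. Whether CAST/EiJ reads mapped as well as C57BL/6J reads was not analysed.

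A site was shared where 2 peaks were each other's best overlap (1 bp or more). Promoters were 1000 bp to each side of every protein-coding start (GENCODE M21 basic). Footprints were counted where wholly inside a peak, and over a motif at 1 bp or more. Motifs were exact consensus strings on both strands of the union of both peaks (sequence GRCm38.p6). The series has 1 group, so nothing was tested between conditions and no p-value was computed. The named genes are the 10 members, up to 4 nearest neighbours with a shared promoter site and, of each pathway list, the 3 with the tallest promoter peak and any closed in a replicate. Elk3 was named after its value was seen. Named sites are each gene's strongest promoter and distal site and those with a CRE or CArG match, and others were named after their values were seen. Members and lists were chosen with earlier results of these data known. Functions were tested on simulated data. Python 3.11.15, numpy 2.4.6, pandas 2.3.3, pysam 0.24.0, samtools 1.23.1 and matplotlib 3.10.9 were used. Alternatives covered the peak list, overlap, window sizes, start sites, scaling, footprint rule, motif margin, the Dusp1 transcripts and each replicate alone.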

Additional observations from a re-analysis of the deposited data

How the results depend on the processing

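No paired analysis between conditions was possible because the series has 1 group, so replicate numbers pair no conditions. Of 65 recomputed values, 52 stayed within a limit around the reported one and 13 moved. The limit was 1.5 times for counts, the median counting error for the log2 ratio and 1 replicate SD for the rest. That SD came from the values of each replicate alone, so leaving out a replicate could hardly move the height median. The comparisons with all genes were not recomputed, so whether a direction reversed was not assessed. The median strongest promoter peak was 4.99 with promoters of 2000 bp (reported 4.17). Shared sites numbered 78 with flanks of 10 kb and 235 with 100 kb (reported 149). Sites outside promoters per 100 kb were 5.51 on the stricter lists, 6.65 when each peak had to be overlapped over at least 50%, 13.4 at 10 kb, 7.10 at 100 kb and 10.3 to 11.6 from 1 replicate alone (reported 8.15). The log2 height ratio was 0.22 without scaling (reported 0.03). Footprints per site were 2 to 3 with 1 replicate left out (reported 3). The share of motif matches with a footprint was 26.6% when the match had to lie wholly inside, and 41.9% to 54.2% in 1 replicate alone (reported 42.2%). Fewer peaks or a narrower window change these by construction, and the other causes were not tested. With the short Dusp1 transcripts alone, chosen as an alternative after seeing the data, CArG was in 5 genes and EGR in 4. Shared sites and the ratio need both replicates. Depth is known only through height steps, and peaks near the threshold limit sharing.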
